A study of Mus musculus with 2 samples.

Results

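Fxyd2 Col14a1 macrophages are a small group of tumour macrophages, 246 of 11552 cells that passed the cell filter in 2 mosaic squamous cell carcinomas of the mouse. They were chosen by their own counts of unique molecular identifiers (UMIs, 1 for each captured RNA molecule). A member held at least 2 UMIs of Fxyd2 and at least 1 of Col14a1. It also held at least 1 UMI of Csf1r, none of Cd3e, and at least 0.2% of its UMIs from the complement genes C1qa, C1qb and C1qc. Cells with 4 or more UMIs of Vcam1, 2 or more of Gbp2b, 3 or more of Fcna and Cbr2 together, or 4 or more of Mki67 and Top2a together were excluded. The rule found 90 members among 2994 macrophages in replicate 1 and 156 among 3247 in replicate 3.

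Both samples are untreated subcutaneous tumours in FVB mice, grown after the YFP-marked line CIT6 and the RFP-marked line CIT9 were injected together. Sections were printed with light-released oligonucleotide codes (ZipSeq), digested with collagenase, sorted for CD45 and run on the 10x 3' v3 chemistry. The labels name the tumours replicate 1 and replicate 3 and do not say whether they came from separate animals. They form 1 group, so every test here is between classes of cells of the same tumours, and with 2 tumours the p-values measure only how class differences vary between them.

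Macrophages are phagocytes that arise from embryonic precursors or from blood monocytes and take on different programmes within a tumour. Fxyd2 encodes the gamma subunit of the Na,K-ATPase, a small membrane protein best known for tuning this sodium pump in the kidney. Col14a1 encodes collagen XIV, which associates with collagen fibrils and is known mainly as a fibroblast product. Ms4a7 encodes a four-pass membrane protein found in macrophages and is the further marker given for this group. In the RefSeq gene table of GRCm38.p6, the assembly behind the mm10 build of the counts, Fxyd2 lies at chr9:45399709-45410278, Col14a1 at chr15:55307644-55520803 and Ms4a7 at chr19:11321039-11336146.

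Replicate 1 held 89040909 gene UMIs with a median of 16798 per cell, and replicate 3 held 170328781 with a median of 21345.5. The 2 libraries shared 9 cell barcodes. Members had a median of 17216 UMIs in replicate 1 against 17157.5 in other macrophages, and 25579.5 in replicate 3 against 22214. "Other macrophages" are the 1678 and 1701 cells that passed every limit of the rule except those on Fxyd2 and Col14a1, so the exclusions hold for them too, and they are a mixed class. Intervals below are exact 95% binomial intervals and cover counting error only.

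The label was checked against macrophage markers. The leukocyte gene Ptprc, which encodes CD45, was detected in 98.9% and 99.4% of members, Cd68 in 98.9% and 99.4%, and Fcgr1, the high-affinity Fc receptor, in 93.3% and 97.4%. T cells were taken as cells with at least 2 Cd3e UMIs, no Csf1r UMI and C1q genes under 0.2% of UMIs. Low shares of macrophage genes in them are therefore partly built in. In T cells the shares were 7.29% and 12.01% for Cd68 and 1.22% and 4.66% for Fcgr1, at median depths of 4362 and 6550.5 UMIs. In other macrophages of replicate 1 they were 96.4% for Cd68 and 89.2% for Fcgr1, close to members. The macrophage marker gene Mertk stood at 38.0 CPM in members of replicate 1, against 44.8 CPM in other macrophages. In that tumour it stood at 66.7 CPM in Vcam1-gated and 59.0 CPM in Fcna Cbr2-gated macrophages. In the tests over both tumours given below, Mertk was called lower in members than in Vcam1-gated macrophages. It did not pass against Fcna Cbr2-gated or other macrophages. Adgre1, which encodes F4/80, stood at 220 and 234 counts per 1e6 UMIs (CPM) in members against 169 and 240 CPM in other macrophages. Of the fibroblast list of 8 genes, Lum was at 0 in members of both tumours and the list summed to 62.8 and 25.7 CPM, against 73.6 and 27.2 CPM in other macrophages. The tumour epithelium list summed to 5.19 and 5.24 CPM in members, with Krt5, Krt14, Krt8 and Trp63 at 0 in both tumours, against 24.8 and 18.2 CPM. The reporters YFP and RFP were each at 1.15 CPM in members of replicate 1 and at 0 in replicate 3.

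Members made up 3.01% of macrophages in replicate 1 (interval 2.42 to 3.68) and 4.80% in replicate 3 (4.09 to 5.60), a mean of 3.91% ± 1.27 (SD, n = 2). Because the limits are whole UMIs, a deeper cell passes them more easily. With every cell thinned to 8000 UMIs the shares were 1.22% and 1.71%, with 147 and 84 shallower macrophages left out. Replicate 3 was the higher in both counts, and the intervals of the thinned shares overlapped (0.850 to 1.69, and 1.29 to 2.21).

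Fxyd2 and Col14a1 chose the cells, so their levels are a description. Fxyd2 stood at 206 and 332 CPM in members, against 18.7 and 13.6 CPM in other macrophages. Col14a1 stood at 104 and 125 CPM in members, against 25.5 and 46.8 CPM. The median member held 3 Fxyd2 UMIs in either tumour, and 42 and 50 members held exactly 2, the lowest count the rule accepts. A few cells lay far above: 6 and 30 members held 10 or more, and 1 member of replicate 3 held 150 of the 1458 Fxyd2 UMIs in that tumour's members. Without this cell the Fxyd2 level in replicate 3 was 299 CPM.

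Among the other macrophage classes, the share of cells that met the Fxyd2 and Col14a1 limits was high in those gated on Fcna and Cbr2, at 9.45% (7.43 to 11.8) and 21.6% (18.0 to 25.5). Within the exclusions it was 5.09% (4.11 to 6.22) and 8.40% (7.18 to 9.76), in dividing macrophages 9.20% (5.24 to 14.7) and 13.8% (11.1 to 16.9), and in Vcam1-gated macrophages 3.0% (1.38 to 5.62) and 7.06% (3.70 to 12.01). The Fcna Cbr2-gated cells had median depths of 22059 and 29100 UMIs and the dividing cells of 31483 and 40473, both above the members, and the part of depth in this order was not tested. Fxyd2 and Col14a1 were thus also found together in cells that the exclusions keep out of the group.

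Free RNA can place UMIs in cells that do not make a gene. Barcodes of 10 to 100 UMIs, which hold mostly free RNA, carried Fxyd2 at 18.7 and 31.7 CPM and Col14a1 at 13.6 and 68.9 CPM. In T cells, Fxyd2 was at 0 and 1.19 CPM and Col14a1 at 0.549 and 2.38 CPM. These T cells were chosen without Csf1r UMIs and with few C1q UMIs, which can remove cells that took up macrophage free RNA. Their low values therefore cannot measure how much free RNA reached cells. Cells with 10 or more Col1a1 UMIs (16 and 23 cells) were also required to hold Col1a2 and to lack Csf1r. They held no Fxyd2 UMI and had Col14a1 at 0 and 1.62 CPM. Of these cells 18.8% and 13.04% held Ptprc, so not every cell past the filter was a leukocyte by that gene. With each cell thinned to 5000 UMIs, Fxyd2 was found in 8.33% and 5.72% of other macrophages and in 0 of 132 and 0 of 494 T cells. In members it was found in 65.6% and 57.1%, which the rule fixes, since it asks for Fxyd2.

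**Figure D1:**
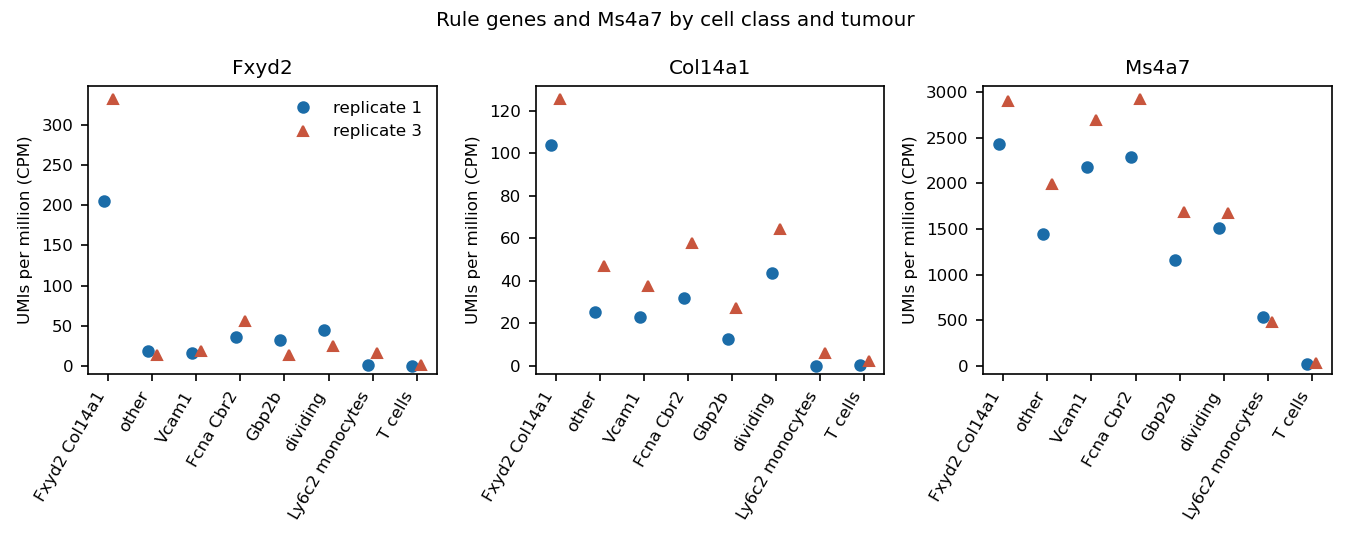
CPM of Fxyd2, Col14a1 and Ms4a7 (linear axes) in Fxyd2 Col14a1 macrophages, 5 further macrophage classes, Ly6c2 monocytes and T cells, 1 point per tumour. Fxyd2 and Col14a1 chose the members, while Ms4a7 lies at 2432 and 2901 CPM in members and at 2182 to 2922 CPM in the Vcam1-gated and Fcna Cbr2-gated classes.

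Among macrophages within the exclusions, Col14a1 was detected more often where a cell held more Fxyd2. In replicate 1, 24.6% of cells with no Fxyd2 UMI held Col14a1 (22.3 to 27.0), 35.8% with 1 UMI, 46.2% with 2 or 3, and 58.3% with 4 or more (44.9 to 70.9). Median depth was level across these bins, between 17013 and 17535.5 UMIs. In replicate 3 the shares were 43.5% (40.9 to 46.2), 64.0%, 62.6% and 81.3% (71.8 to 88.7), with a deeper last bin (27141 against 22039.5 UMIs in the first). Both tumours had the highest share in the last bin and the lowest in the first, and in replicate 3 the 2 middle bins did not differ beyond their intervals.

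Members were then compared with other macrophages in genes that the rule did not use. UMIs were summed per tumour and class, and edgeR's quasi-likelihood test was run with the tumour as a block. Of 11215 genes tested, 16 were higher in members (0.143%) and 46 lower (0.41%), and all 62 (0.553%) moved the same way in both tumours. The calling itself favours this agreement, since a gene whose direction differs between the tumours rarely passes. How often all tested genes agreed in direction was not counted. Among the named genes, the folate receptor gene Folr2, the lipid transfer gene Pltp and the receptor gene Slamf9 were higher, and the chemokine gene Ccl4, the lectin gene Mgl2 and the cytokine gene Osm were lower. The counts rest on the block: without it no gene passed, with 105 higher and 202 lower at an unadjusted p under 0.05. DESeq2 called 41 higher and 79 lower, 59 of the 62 among them.

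Ms4a7 itself was higher in members. It is a marker given for the group, which was chosen with earlier results of these data known, so its test is not independent support. It stood at 2432 and 2901 CPM, against 1448 and 1991 CPM in other macrophages, a log2 fold change of 0.64 ± 0.09 (standard error; adjusted p = 0.00871, by edgeR with Benjamini-Hochberg adjustment as in all comparisons here). Of the 7 tested genes of the Ms4a family, 1 was higher and 0 lower. The closest of the rest were Ms4a14 (0.57 ± 0.14, adjusted p = 0.103) and Ms4a6b (0.41 ± 0.12, adjusted p = 0.212). Ms4a6b was at 424 and 490 CPM in members against 278 and 411 CPM.

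Folr2, a folate receptor of resident macrophages, stood at 107 and 118 CPM in members, against 47.7 and 49.9 CPM in other macrophages (log2 fold change 1.20 ± 0.10, adjusted p = 0.000384). It was detected in 64.4% and 64.1% of members and in 35.2% and 34.8% of other macrophages, at similar depth in replicate 1. Of the 17 tested genes of the resident and repair list, Folr2 was the 1 that was higher, 0 were lower, and its median log2 fold change was 0.11, against 0.005 over all genes. F13a1, a coagulation factor subunit made by resident macrophages, had -0.02 ± 0.17, and the mannose receptor gene Mrc1 had -0.17 ± 0.18.

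Pltp, a phospholipid transfer protein, stood at 508 and 804 CPM in members against 314 and 484 CPM (0.71 ± 0.09, adjusted p = 0.00481). Slamf9, a receptor of the SLAM family, stood at 260 and 406 CPM against 146 and 252 CPM (0.75 ± 0.10, adjusted p = 0.00514). Every member value of these 2 called genes lay above both values of other macrophages, for Slamf9 by a small margin (260 against 252 CPM). How often this held over all tested genes was not counted. Higher too were the tetraspanin genes Tspan17 and Cd37, the semaphorin receptor gene Plxnb2, the signalling adaptor gene Blnk, the collagen lysyl hydroxylase gene Plod1, and Fam167b and Avpi1, with log2 fold changes of 0.55 to 1.39. None of the 22 tested genes for lipid handling and the lysosome passed, and their median was 0.01.

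The largest ratios belonged to genes of low level, chosen here after their values were seen. Adgrl2, an adhesion G protein-coupled receptor gene, had 9.22 and 5.24 CPM in members against 1.73 and 1.15 CPM (2.27 ± 0.39, adjusted p = 0.0197). Igf2r, the receptor that carries mannose 6-phosphate-tagged enzymes to lysosomes and clears IGF2, had 6.92 and 17.5 CPM against 2.21 and 4.54 CPM (1.88 ± 0.24, adjusted p = 0.00468). Cd109, a membrane-anchored inhibitor of TGF-beta signalling, had 17.3 and 30.3 CPM against 6.97 and 9.77 CPM (1.50 ± 0.22, adjusted p = 0.00727). Cspg4, which encodes the NG2 proteoglycan, had 9.22 and 25.1 CPM against 3.23 and 9.27 CPM (1.39 ± 0.25, adjusted p = 0.021). One UMI was worth 0.576 CPM in members of replicate 1 and 0.228 CPM in those of replicate 3, so such values rest on few molecules in replicate 1.

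**Figure D2:**
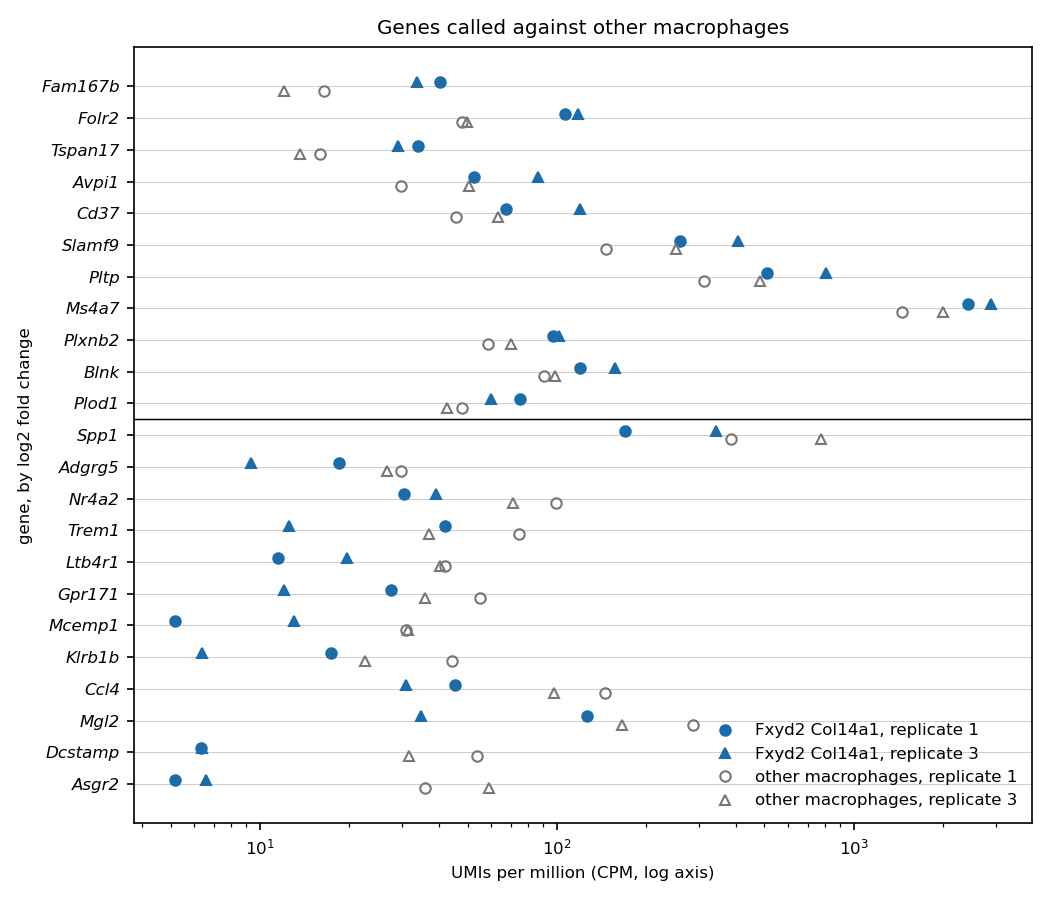
CPM (log axis) of the called genes with the largest fold changes and at least 20 CPM in the higher class, filled for Fxyd2 Col14a1 macrophages and open for other macrophages, circles for replicate 1 and triangles for replicate 3. Genes above the line were higher in members (Folr2 at 107 and 118 against 47.7 and 49.9 CPM) and those below it lower (Ccl4 at 45.5 and 31.0 against 145 and 97.4 CPM).

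Mgl2 and Asgr2, C-type lectin genes, were lower in members than in other macrophages. Mgl2 stood at 126 and 34.9 CPM in members against 288 and 166 CPM (-1.70 ± 0.22, adjusted p = 0.00481). Asgr2 stood at 5.19 and 6.61 CPM against 36.0 and 58.9 CPM (-3.02 ± 0.44, adjusted p = 0.00775). Spp1, which encodes the secreted matrix protein osteopontin, stood at 170 and 344 CPM in members against 387 and 777 CPM (-1.17 ± 0.21, adjusted p = 0.0266). Dcstamp, needed for the fusion of macrophages and osteoclasts, stood at 6.34 and 6.38 CPM against 53.7 and 31.8 CPM (-2.66 ± 0.45, adjusted p = 0.0182). Mcemp1, Gpr171, Ltb4r1, Trem1 and Adgrg5 were lower too, with log2 fold changes of -1.58 to -1.17. Ltb4r1, the high-affinity receptor for leukotriene B4, stood at 11.5 and 19.6 CPM in members against 41.9 and 40.5 CPM. Trem1, an activating receptor of myeloid cells, stood at 42.1 and 12.5 CPM against 74.5 and 37.1 CPM, and its 2 classes overlapped across tumours.

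Chemokine genes were lower where they passed. Of 22 tested, 3 were lower, 0 higher, and the median log2 fold change was -0.31. Ccl4, which attracts monocytes and lymphocytes, stood at 45.5 and 31.0 CPM in members against 145 and 97.4 CPM (-1.66 ± 0.17, adjusted p = 0.0014). Cxcl2, a neutrophil attractant, stood at 1570 and 1117 CPM against 2412 and 1610 CPM (-0.58 ± 0.11, adjusted p = 0.0329). Ccl17, a ligand of Ccr4, gave 2 UMIs in all members together against 1032 in other macrophages, a ratio of 0.0219 (interval 0.00265 to 0.0794) after scaling to total UMIs. That gene was detected in 2.50% and 3.29% of other macrophages, so few cells carry the contrast, and under the wider gate, which accepts 1 Fxyd2 UMI, its log2 fold change was 0.12.

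Of 12 inflammatory cytokine genes tested, Osm was lower, 0 were higher, and the median was -0.65. Osm, a cytokine of the interleukin-6 family, stood at 78.9 and 62.4 CPM in members against 152 and 104 CPM (-0.84 ± 0.12, adjusted p = 0.00573). Il1b had 562 and 283 CPM against 843 and 554 CPM and did not pass (-0.77 ± 0.27, adjusted p = 0.323). Nr4a2, an orphan nuclear receptor induced early on activation, stood at 30.5 and 39.2 CPM against 99.1 and 70.9 CPM (-1.18 ± 0.16, adjusted p = 0.00514). Btg2, an antiproliferative early response gene named after its values were seen, stood at 180 and 145 CPM against 327 and 277 CPM (-0.91 ± 0.09, adjusted p = 0.0014). The 16 genes of the dissociation stress and immediate early list had a median of -0.18, and none passed.

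Against other macrophages, all 10 tested MHC class II genes had values below 0, with a median of -0.55. Only H2-DMb2, a subunit of the peptide exchange factor, passed (-0.73 ± 0.11, adjusted p = 0.0125). H2-Aa stood at 4849 and 7397 CPM in members against 8388 and 9718 CPM (-0.60 ± 0.14, adjusted p = 0.0943). Genes of 1 pathway vary together, so 10 values of 1 sign are not 10 separate results. All 17 hypoxia and glycolysis genes likewise lay below 0 (median -0.34), and 0 passed. The integrin gene Itgax, which encodes CD11c, was lower (-0.83 ± 0.16, adjusted p = 0.0434). No gene passed among 24 interferon-stimulated genes (median -0.15), 14 MHC class I genes (-0.07), 13 efferocytosis genes (0.11) or 18 cell cycle genes (0.07).

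Genes of the sodium pump did not pass beside Fxyd2. Of 7 tested genes for Na,K-ATPase subunits and FXYD proteins, 0 passed in either direction, with a median of -0.01. Fxyd5 was at 1086 and 1096 CPM in members against 1090 and 1094 CPM in other macrophages (-0.01 ± 0.13, adjusted p = 0.998). Of 18 tested matrix and matrix-linked genes 0 passed, with a median of -0.13.

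Some lower genes belong to other leukocytes, whose lists were also lower in sum. The neutrophil list summed to 314 and 24.8 CPM in members against 1543 and 47.7 CPM in other macrophages, and Retnlg was called lower from it (4.61 and 0 CPM against 51.5 and 0.301 CPM), a call that DESeq2 did not make. The T and NK list summed to 5.19 and 11.4 CPM against 31.4 and 24.1 CPM, with Cd3e at 0 by the rule, and the NK receptor genes Klrb1b and, named after its values were seen, Klrk1 were called lower. The dendritic list of 9 genes summed to 4.03 and 14.1 CPM against 14.7 and 22.6 CPM, with 6 of them at 0 in members of replicate 1 and 1 in replicate 3, and the dendritic cell factor Batf3, also named after its values were seen, was called lower. The part of these cells or their free RNA in the 3 results was not tested. With cells of 5 or more S100a8 and S100a9 UMIs left out of every class, 69 genes were called, 58 of the 62 among them. F10, a coagulation factor made by monocytes, was lower at 17.9 and 2.51 CPM against 57.5 and 14.0 CPM (-1.94 ± 0.32, adjusted p = 0.0166), with the monocyte list at 723 and 703 CPM in sum against 881 and 900 CPM. Cdh1, which encodes E-cadherin, was lower at 3.46 and 4.33 CPM against 19.2 and 12.9 CPM (-1.88 ± 0.36, adjusted p = 0.0372), and it makes up most of the epithelium list's sum given above, so that sum is not a separate value.

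**Figure D3:**
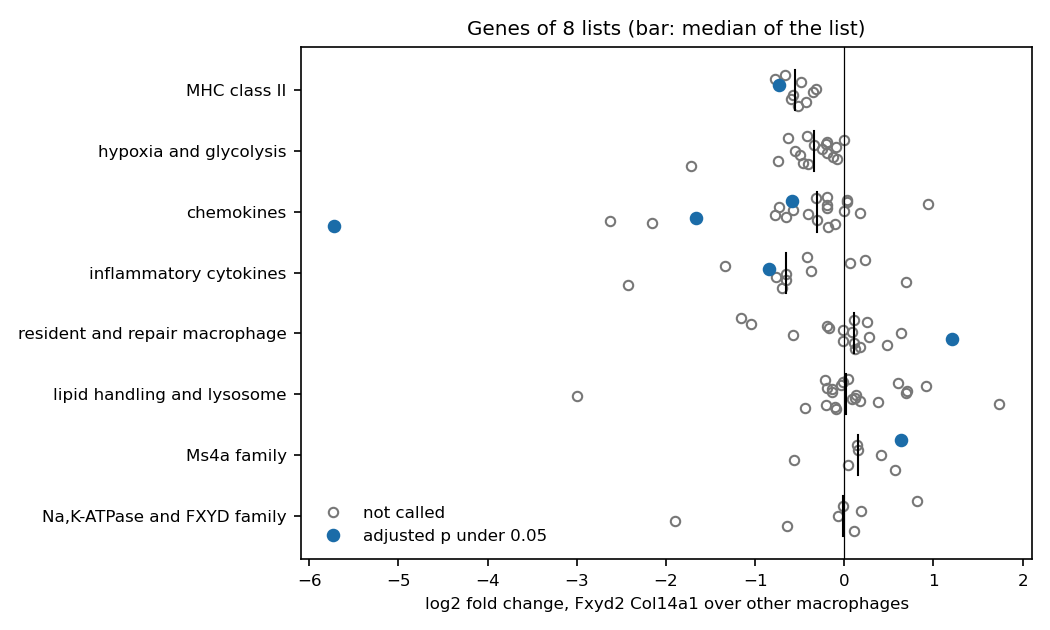
Log2 fold change of Fxyd2 Col14a1 over other macrophages for the tested genes of 8 lists, filled where the adjusted p was under 0.05, with a bar at each list's median. MHC class II genes lie below 0 with a median of -0.55, and the sodium pump and FXYD genes centre on -0.01.

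For Ms4a7 and 10 called genes, levels were followed over the number of Fxyd2 UMIs in a cell, with non-members included, as a description. These genes were called in the same cells, and all members fall in the bins of 2 or 3 and of 4 or more UMIs. A trend over the bins is therefore partly built in, and only the step from 0 to 1 UMI lies outside the members. Mgl2 had 327, 179, 117 and 26.1 CPM in cells of replicate 1 with 0, 1, 2 or 3, and 4 or more Fxyd2 UMIs, and 175, 126, 94.8 and 15.1 CPM in replicate 3. Spp1 had 442, 223, 129 and 104 CPM in replicate 1, and 849, 517, 376 and 279 CPM in replicate 3. Igf2r had 1.64, 2.76, 5.38 and 13.1 CPM in replicate 1, and 4.03, 7.52, 10.1 and 18.5 CPM in replicate 3. These 3 genes, and also Pltp, Slamf9, Nr4a2 and Osm, changed in 1 direction at each step in both tumours. The other 4 did not. Ccl4 had 154, 125, 54.7 and 64.4 CPM in replicate 1, and 110, 34.3, 62.6 and 21.5 CPM in replicate 3. Cd109 had 5.53, 12.08, 9.42 and 27.1 CPM in replicate 1, and climbed at each step in replicate 3. Folr2 climbed only as far as 2 or 3 UMIs in replicate 1 (98.2 CPM, then 92.3 CPM), as did Ms4a7 in replicate 3 (2810 CPM, then 2757 CPM).

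At the edge of the rule, the 22 and 15 members with exactly 2 Fxyd2 UMIs and 1 Col14a1 UMI had Ms4a7 at 2077 and 2653 CPM. Cells just outside, with 1 Fxyd2 UMI and any Col14a1, had 2180 and 2936 CPM, and those with Fxyd2 but no Col14a1 had 1967 and 2457 CPM. Cells with Col14a1 but no Fxyd2 had 1724 and 2521 CPM, and cells with neither gene had 1170 and 1287 CPM. Cells with only part of the rule met, also those without any Fxyd2, were thus closer in Ms4a7 to the members at its edge than to cells with neither gene. In replicate 3, cells with Col14a1 but no Fxyd2 lay above those with Fxyd2 but no Col14a1.

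**Figure D4:**
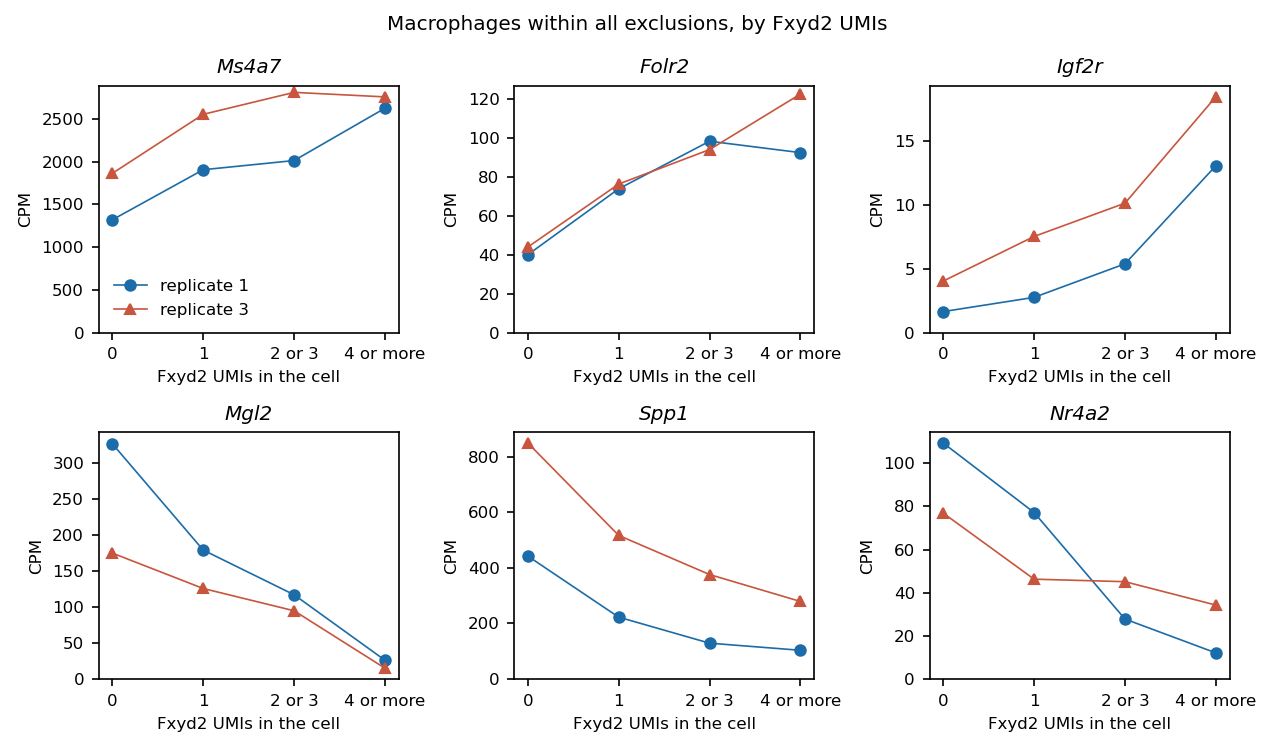
CPM of 6 genes (linear axes from 0) in macrophages within the exclusions, by the number of Fxyd2 UMIs in the cell, 1 line per tumour. Mgl2 and Spp1 fall and Igf2r climbs at every step, and the highest Igf2r values are 13.1 and 18.5 CPM at 4 or more UMIs. The genes were called in these same cells, so the trends are partly built in.

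Members were next set against the 2 classes that the rule keeps apart. Against Vcam1-gated macrophages (300 and 170 cells), 118 genes were higher in members (1.05%) and 138 lower (1.23%), 255 of these 256 (2.28% of genes tested) in the same direction in both tumours. Against Fcna Cbr2-gated macrophages (730 and 487 cells), 29 were higher (0.259%) and 42 lower (0.374%), 70 of these 71 (0.633%) in the same direction. These comparisons share the members' libraries with the first, and here too the calling favours agreement in direction. Without the block no gene passed in either, with 303 higher and 338 lower, and 132 higher and 212 lower, at an unadjusted p under 0.05.

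Compared with Vcam1-gated macrophages, members were higher in the S100 genes S100a4 and S100a6 and in Ccr2. S100a4, a calcium-binding protein of motile cells, stood at 411 and 2310 CPM in members against 93.2 and 348 CPM (2.47 ± 0.28, adjusted p = 0.00231). S100a6 stood at 833 and 1865 CPM against 357 and 423 CPM (1.70 ± 0.22, adjusted p = 0.00308). The monocyte chemokine receptor gene Ccr2 stood at 208 and 381 CPM against 53.3 and 182 CPM (1.44 ± 0.33, adjusted p = 0.0423), and DESeq2 did not call it. Of 8 monocyte markers tested, 2 were higher (Ccr2 and Fn1) and 1 lower, with a median of -0.56.

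The chemokine gene Ccl8 was lower in members, at 405 and 538 CPM against 1286 and 3404 CPM in Vcam1-gated cells (-2.20 ± 0.51, adjusted p = 0.0432), which DESeq2 did not call. Il18bp, a secreted inhibitor of interleukin-18, stood at 35.7 and 28.5 CPM against 89.6 and 119 CPM (-1.73 ± 0.27, adjusted p = 0.00649). The inhibitory lectin gene Cd22 stood at 6.92 and 3.42 CPM against 28.2 and 22.97 CPM (-2.41 ± 0.35, adjusted p = 0.00629). Of 10 MHC class II genes, H2-Aa, H2-Ab1 and Cd74 were lower and 0 higher. Of 22 lipid and lysosome genes, Fabp5, Abcg1, Lipa and Psap were lower and 0 higher.

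Compared with Fcna Cbr2-gated macrophages, members had less of the resident and repair list, with 8 of 17 genes lower, 0 higher and a median of -0.98. Those genes were Folr2, Lyve1, Mrc1, Cd163, F13a1, Igf1, Stab1 and Maf. Fcna and Cbr2 gate that class and are themselves resident macrophage genes, so the list is not independent of how the class was chosen. F13a1 stood at 141 and 30.1 CPM in members against 379 and 159 CPM (-1.83 ± 0.17, adjusted p = 0.00074). Folr2 thus took a middle place, at 107 and 118 CPM in members, 224 and 225 CPM in Fcna Cbr2-gated cells (-0.93 ± 0.10, adjusted p = 0.00185) and 79.6 and 71.2 CPM in Vcam1-gated cells (0.58 ± 0.11, adjusted p = 0.0173). The MHC class II list lay the other way against Fcna Cbr2-gated cells than against the other 2 classes. Of its 10 tested genes 9 lay above 0, with a median of 0.43, and H2-Eb1 was higher in members.

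Cxcl14, a chemokine, was higher in members than in either gated class, at 87.6 and 115 CPM against 18.0 and 28.0 CPM in Vcam1-gated cells (2.12 ± 0.32, adjusted p = 0.00646) and 24.1 and 44.5 CPM in Fcna Cbr2-gated cells (1.63 ± 0.28, adjusted p = 0.0204). Against other macrophages it did not pass (0.94 ± 0.27, adjusted p = 0.18). Tgfbi, a matrix adhesion protein, was higher than in both gated classes (0.76 ± 0.14 and 0.75 ± 0.14). Ms4a7 passed in neither of the 2 (0.13 ± 0.09 and 0.10 ± 0.09). Of the 46 genes lower than in other macrophages, 20 were also lower than in Vcam1-gated and 4 than in Fcna Cbr2-gated cells. Spp1 (0.67 ± 0.22 and 0.34 ± 0.21), Asgr2 (-1.18 ± 0.56 and -0.91 ± 0.52) and Nr4a2 (-0.10 ± 0.18 and -0.29 ± 0.17) passed in neither. Mgl2 was lower than in Vcam1-gated cells (-0.98 ± 0.23) but did not pass against Fcna Cbr2-gated cells (-0.20 ± 0.22).

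**Figure D5:**
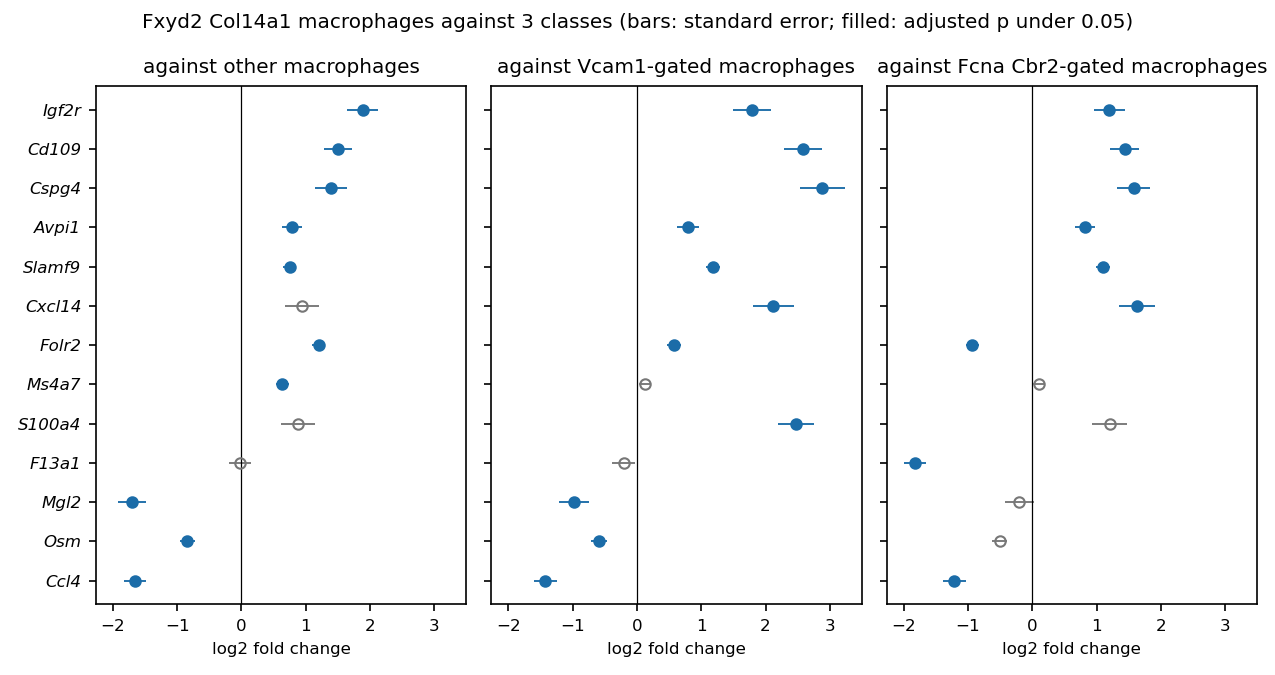
Log2 fold change with standard error of 13 genes in Fxyd2 Col14a1 macrophages against 3 macrophage classes, filled where the adjusted p was under 0.05. Igf2r, Cd109, Cspg4, Avpi1 and Slamf9 are higher and Ccl4 lower in each panel, while Folr2 lies at 1.20, 0.58 and -0.93.

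In all 3 comparisons, 6 genes were higher in members, namely Avpi1, Cd109, Cspg4, Igf2r, Ppp1r12b and Slamf9, and Ccl4 was lower. This set of 6 did not hold under a mitochondrial limit of 5%, where 5 genes in all were higher than in Fcna Cbr2-gated cells, and where Avpi1 and Ppp1r12b did not pass against other macrophages. Slamf9 had the highest level of the 6 and stood at 116 and 176 CPM in Vcam1-gated and 131 and 192 CPM in Fcna Cbr2-gated cells, below both member values. It stood at 189 and 238 CPM in Gbp2b-gated and 186 and 270 CPM in dividing macrophages, below members of the same tumour. The dividing value of replicate 3 lay above the 260 CPM of members in replicate 1. How often such a separation held over all tested genes was not counted. Promoter windows from RefSeq (GRCm38.p6, 250 bases before to 50 after the start of transcription) were matched for 5 of the 6, and 4 had a single entry. They are shown for Slamf9 and Avpi1, which hold the letters GAGGAA, the core bound by the ETS factor PU.1 that macrophages depend on. Capitals mark these letters, which were searched on both strands.
Slamf9 (chr1:172475110-172475409, plus strand): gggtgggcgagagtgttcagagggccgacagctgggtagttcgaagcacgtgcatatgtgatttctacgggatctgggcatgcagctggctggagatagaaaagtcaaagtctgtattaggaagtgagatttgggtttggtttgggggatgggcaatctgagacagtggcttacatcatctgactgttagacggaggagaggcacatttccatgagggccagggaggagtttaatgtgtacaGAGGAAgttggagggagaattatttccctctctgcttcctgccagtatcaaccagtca
Avpi1 (chr19:42128944-42129243, minus strand): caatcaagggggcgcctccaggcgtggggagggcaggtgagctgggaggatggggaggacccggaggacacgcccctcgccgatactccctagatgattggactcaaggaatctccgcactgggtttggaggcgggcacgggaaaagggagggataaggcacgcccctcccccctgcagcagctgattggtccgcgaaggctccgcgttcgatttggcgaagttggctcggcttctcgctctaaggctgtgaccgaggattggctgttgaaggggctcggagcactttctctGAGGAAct
The letters GAGGAA were in 28.3% of all 32851 promoter windows in that table, so a match is common, and the windows of Cspg4 and Igf2r held none. The letters TATAAA were in 13.6% of all windows and in none of these 4.

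Fxyd2 was not confined to C1q-rich macrophages. Cells with 10 or more Fxyd2 UMIs that failed the macrophage limits numbered 4 in replicate 1 and 81 in replicate 3, a limit chosen after the values were seen. All cells outside those limits held 12.4% and 45.4% of each tumour's Fxyd2 UMIs, against 16.5% and 21.8% in members. The 4 and 81 cells carried the osteoclast genes Ctsk at 4291 and 2997 CPM and Acp5 at 7511 and 4561 CPM. Members had Ctsk at 2.88 and 6.61 CPM against 19.7 and 40.7 CPM in other macrophages, which did not pass (-3.00 ± 0.64, adjusted p = 0.0626). Their Acp5 stood at 282 and 180 CPM, against 334 and 171 CPM in other macrophages.

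These osteoclast gene-rich cells also had Cd109 at 226 and 86.9 CPM, Igf2r at 23.2 and 43.7 CPM and Cspg4 at 63.7 and 67.7 CPM, above the level over all members. Members with 10 or more Fxyd2 UMIs (6 and 30 cells) had Cd109 at 23.6 and 34.98 CPM, Igf2r at 39.3 and 34.98 CPM and Cspg4 at 62.9 and 47.01 CPM. In replicate 1 these 6 members held 127125 UMIs of all genes and the 4 osteoclast gene-rich cells 172680. Levels of these 3 genes there rest on few molecules, and no order was drawn from them. Of the osteoclast gene-rich cells, 0 of 4 and 57 of 81 held Col14a1. The 30 members of replicate 3 with 10 or more Fxyd2 UMIs had Ctsk at 15.3 CPM and Atp6v0d2, an osteoclast proton pump subunit, at 13.1 CPM. The 6 such members of replicate 1 had Ctsk at 15.7 CPM and Atp6v0d2 at 118 CPM. Other macrophages had Atp6v0d2 at 9.75 CPM in replicate 1 and 4.16 CPM in replicate 3. Acp5 stood at 944 CPM in these 6 members and 329 CPM in the 30, above other macrophages. In replicate 3, Ctsk of the 30 members lay below other macrophages (15.3 against 40.7 CPM), as did Mmp9 (3.28 against 17.6 CPM), which rests on few molecules. In replicate 1, Mmp9 was at 0 in the 6 members against 12.3 CPM in other macrophages. Ctsk and Mmp9 rest on too few molecules there, and no order was drawn from them.

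Members and other macrophages took close shares of the light-printed codes. The labels say that codes mark YFP, RFP and mixed regions of a section but the sources used here do not tie a code to a region. In replicate 1, members took 34.3% of their code UMIs from ZC1, 24.5% from ZC2 and 41.2% from ZC5, against 34.4%, 25.1% and 40.5% in other macrophages. In replicate 3, they took 8.11% from ZC1, 25.5% from ZC5 and 66.4% from ZC6, against 8.04%, 26.1% and 65.9%. Every difference was under 1 percentage point, or up to 1.10 points (ZC5 in replicate 1) in cells of 15000 to 40000 UMIs, beside SDs over member cells of 4.25 to 12.3. The differences for ZC5, 0.67 points in replicate 1 and -0.59 in replicate 3, had opposite signs. No test was run on these differences.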

How the data were processed

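The authors deposited, per tumour, a matrix of UMI counts per feature and barcode, with no normalisation. They were made with Cell Ranger 4.0 on mm10, per the submitters' processing notes; the annotation release is not given in the sources used here. Cells were barcodes with at least 1000 gene UMIs, 500 genes and at most 10% mitochondrial UMIs (4818 and 6734 cells). Members and gene lists were chosen with earlier results of these data known.

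Members and 5 further macrophage classes were cut by UMI limits, and counts were summed per tumour and class (12 libraries; member totals 1735335 and 4389903 UMIs). Genes were tested with edgeR 4.0.16 (TMM, filterByExpr, tumour as block, 5 residual degrees of freedom; R 4.3.3), adjusted by Benjamini-Hochberg at 0.05. The 25 rule, mitochondrial and reporter genes that passed the filter were left out. DESeq2 1.42.0 was an alternative. Other genes can vary with Fxyd2 across cells, so a test between gated classes describes them and does not show that they are separate types. The test against other macrophages was tried on data simulated from the fit's own means and spread. It recovered 74 of 99 genes changed 2-fold and 94 of 98 changed 4-fold, and called 6 unchanged genes. No cells were gated in the simulation, so it cannot check the effect of the rule. The block rests on the shared tissue: differences between the tumours correlated at 0.239 to 0.882 over 15 pairs of classes. Scrublet's threshold marked 1 and 0 cells, too few to be usable. Doublets therefore stayed in, and an alternative removed the 186 and 363 highest scores (4 and 11 members).

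Named genes were the 12 (8 for a gated class) with the largest fold change each way among those called with at least 20 CPM in the higher class in both tumours, the Ms4a and sodium pump families, and the called and largest members of other lists. CPM values are plain UMI counts per 1e6 UMIs, while fold changes come from the TMM-scaled fit. One UMI of depth limits low genes: 3 counts are 1.73 and 0.683 CPM in members.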

Additional observations from a re-analysis of the deposited data

How the results depend on the processing

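Of the 62 genes called against other macrophages, all kept their sign under every alternative that tested them except Ccl17, which went to 0.12 under the wider gate (1 Fxyd2 UMI), where 45 of the 62 stayed called. The higher and lower counts were 16 and 46, and became 41 and 79 by DESeq2, 127 and 309 with no filter on low counts, 145 and 235 with only the 2 classes compared in the fit, and 132 and 214 against cells with neither Fxyd2 nor Col14a1. Cells of 15000 to 40000 UMIs gave 26 higher. Alternatives added after seeing the data gave 31 higher for a stricter gate (4 Fxyd2 and 2 Col14a1 UMIs, at least 10 cells) and 51 and 76 for classes cut on cells thinned to 8000 UMIs. These 2 kept 44 of 62 and 39 of 61 of the original calls that they tested, and the mitochondrial limit of 5% kept 47 of 61, so larger counts did not mean that the first list was retained. The planned stricter gate could not be fitted, since replicate 1 held 17 such cells against a minimum of 20. Against Vcam1-gated cells, 118 and 138 became 288 and 236 by DESeq2, 383 and 521 without the filter, 211 and 326 with only the 2 classes, 216 and 231 under the stricter gate and 394 and 423 after thinning, and the depth band gave 203 higher. Against Fcna Cbr2-gated cells, 29 and 42 became 146 and 90, 178 and 293, 257 and 264, 61 and 67, and 223 and 183 in the same order. There the depth band gave 82 higher, the wider gate 64 lower, a mitochondrial limit of 5% gave 5 and 14, and subtracting 5% free RNA gave 17 higher. Without the replicate block all 6 counts were 0. The cause of these shifts was not tested. Without a replicate a fit has no residual degrees of freedom, so only fold changes were compared. Of the 62 called genes, 5 without replicate 1 and 15 without replicate 3 moved by more than the SD between the tumours. None changed sign, which repeats the agreement in direction given above. The member share, 3.91%, was 1.30% under the stricter gate, 7.89% under the wider gate and 1.46% after thinning, and 3.01% to 4.80% without a replicate. The mean ZC1 difference of -0.01 points was -0.26 in the depth band and -0.11 without high doublet scores, and -0.07 to 0.06 without a replicate; for ZC5, at 0.04 points, that range was -0.59 to 0.67 and the depth band gave 0.34. Depth limits genes under about 10 CPM in members of replicate 1.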
